A study of Mus musculus with 6 samples.

Results

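The chaperones and heat shock factors described here are 36 genes chosen by name from the probes of 6 mouse arrays. They were chosen with earlier results of these data known, so shares of members set against all features are not independent of the data. The working name of the set is cytosolic chaperones and heat shock factors, but Hspa9, Hspd1 and Hspe1 are the Hsp70, Hsp60 and Hsp10 of the mitochondrial matrix, and they are reported as a group of their own. Of the 36 genes, 35 had a probe of that name and 34 passed the filter on dim probes, out of 29134 features measured. No probe carried the name Hspa1b, and Hspb1, a small heat shock protein, was well above background in only 3 of 12 channel values, namely WT HSC 3, KO HSC 2 and KO MPP 1. All counts below are therefore over 34 genes, of which 24 were among the 5827 brightest features.

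The study compared mice labelled as knockouts (KO) of Bmi1, a subunit of Polycomb repressive complex 1 that stem cells need for self-renewal, with wild-type (WT) mice. HSCs (hematopoietic stem cells) and MPPs (multipotent progenitors, their immediate descendants) were sorted by FACS from C57BL6 animals aged 2 to 3 months, and 10 µg of Trizol-extracted RNA was labelled per sample. Each of the 6 arrays held 1 sample labelled Bmi1 KO in red (Cy5) and 1 WT sample in green (Cy3), with 3 arrays of HSCs and 3 of MPPs, called biological replicates in the labels. No array had the dyes exchanged, so a dye bias of a probe and the genotype cannot be told apart in a KO over WT ratio, whereas MPPs and HSCs were compared within 1 dye.

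Chaperones are proteins that help others to fold, to assemble or to be cleared. Hsp70 proteins bind exposed stretches of a client with the help of J-domain proteins, and exchange factors such as the Hsp110 and BAG proteins release it. The client then passes to Hsp90 with its cochaperones, or to the ring-shaped CCT chaperonin that folds actin and tubulin. Heat shock factors, Hsf1 above all, bind repeats of the unit GAA and its reverse complement TTC in the promoters of many of these genes when unfolded protein accumulates.

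These repeats are shown for 4 members with runs of 3 or more units and for Hspa1a, whose window is nearly that of Hspa1b. Members were chosen by name and not by these letters. Heat shock factors are known to act through such repeats in many of these genes, so the shares below are not independent of the choice. They also count the run shared by Hspd1 and Hspe1, and the near-identical windows of Hspa1a and Hspa1b, for both genes. Promoter windows of 300 bases, from 250 before to 50 after a gene's start, were taken from RefSeq (build GRCm38.p6) and held 29 of the 36 members. The letters searched, on both strands, were the pairs TTCNNGAA and GAANNTTC and the runs of 3 units GAANNTTCNNGAA and TTCNNGAANNTTC, each of which contains both pairs. A pair was present in 16 of the 29 members (55.2%) and in 17% of all 27025 genes of the table. A run of 3 or more units was present in 5 members (17.2%), namely Hsph1, Hspd1, Hspe1, Dnajb6 and Chordc1, and in 0.662% of all genes. Among the members known to be induced by heat, 8 of 9 with a window held a pair, the exception being Dnajb1. A match describes letters only, and no match says only that these letters are not in the window. Capitals below mark the runs of GAA and TTC units, each line being read 5′ to 3′ on the strand of the gene.
Hspe1: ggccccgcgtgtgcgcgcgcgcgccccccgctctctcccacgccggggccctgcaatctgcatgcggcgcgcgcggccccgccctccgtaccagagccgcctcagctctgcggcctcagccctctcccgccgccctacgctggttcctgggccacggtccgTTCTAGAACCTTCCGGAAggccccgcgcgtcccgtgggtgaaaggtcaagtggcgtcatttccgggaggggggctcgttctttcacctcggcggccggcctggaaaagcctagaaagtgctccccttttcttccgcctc
Chordc1: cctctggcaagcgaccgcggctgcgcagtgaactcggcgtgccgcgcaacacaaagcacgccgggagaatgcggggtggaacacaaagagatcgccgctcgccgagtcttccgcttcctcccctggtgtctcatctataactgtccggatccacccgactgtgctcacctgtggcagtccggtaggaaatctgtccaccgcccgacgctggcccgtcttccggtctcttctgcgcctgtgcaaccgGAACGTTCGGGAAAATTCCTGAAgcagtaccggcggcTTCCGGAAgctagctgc
Hsph1: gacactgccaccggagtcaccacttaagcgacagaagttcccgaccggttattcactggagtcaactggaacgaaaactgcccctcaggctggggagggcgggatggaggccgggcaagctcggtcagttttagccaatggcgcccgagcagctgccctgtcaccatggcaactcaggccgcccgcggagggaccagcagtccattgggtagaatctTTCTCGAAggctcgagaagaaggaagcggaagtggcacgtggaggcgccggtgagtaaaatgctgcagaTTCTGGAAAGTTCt
Dnajb6: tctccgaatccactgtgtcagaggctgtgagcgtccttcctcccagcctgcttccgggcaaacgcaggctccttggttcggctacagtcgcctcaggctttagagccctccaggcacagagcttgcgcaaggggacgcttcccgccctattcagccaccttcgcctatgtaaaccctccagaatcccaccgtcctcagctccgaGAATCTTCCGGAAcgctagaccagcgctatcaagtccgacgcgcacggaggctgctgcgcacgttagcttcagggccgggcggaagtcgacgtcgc
Hspa1a: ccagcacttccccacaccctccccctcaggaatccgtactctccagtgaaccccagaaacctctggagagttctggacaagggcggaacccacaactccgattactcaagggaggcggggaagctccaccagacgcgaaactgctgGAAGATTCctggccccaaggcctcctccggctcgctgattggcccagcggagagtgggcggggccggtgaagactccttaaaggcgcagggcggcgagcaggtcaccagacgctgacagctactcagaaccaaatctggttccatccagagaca

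The Hspe1 window (chr1:55087898-55088197, plus strand) held a run of 4 units between 89 and 72 bases before the start. Hspd1 is transcribed from the other strand of the same stretch, and 285 bases of its second window (chr1:55087883-55088182, minus strand) were shared with that of Hspe1, so the run of 4 units belonged to both genes. Chordc1 (chr9:18292017-18292316, plus strand) had the longest run of the members, 5 units from 4 bases before to 19 bases after the start, with another pair ending 41 bases after it. In Dnajb6 (chr5:29735648-29735947, plus strand) the 3 units lay 46 to 34 bases before the first of its 2 starts. In Hsph1 (chr5:149636287-149636586, minus strand) a pair lay 33 to 26 bases before the first of its 2 starts, and 3 units ended 49 bases after it. The Hspa1a window (chr17:34972107-34972406, minus strand) held a single pair, 104 to 97 bases before the start. It was identical to the Hspa1b window at 296 of 300 aligned bases (98.7%). These bases lie mostly before the start, so they do not show what the array probe binds. The transcripts of these genes are also near copies, so RNA of Hspa1b may add to the signal of the Hspa1a probe. The sequence of that probe was not compared with Hspa1b.

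Of the 62976 spots of an array, 3671 were controls, and among the others 72.45% to 82.18% stood well above background in the green channel and 78.80% to 83.87% in the red one. No spot of a member was saturated or carried a quality mark. The slide row was read from a digit of the file names. By that digit, MPP 1 shared row 1 with the HSC arrays, while MPP 2 and 3 were in row 2. Bmi1 itself had a log2 KO over WT ratio of -1.11 (SE 0.47, limma, Benjamini-Hochberg adjusted p = 0.664) in HSCs and 0.01 (SE 0.47, adjusted p = 1) in MPPs. The deleted part of the gene is not given in the sources used here, so the probe may lie outside it and does not check the labels. The sorted populations fitted their names, since 7 of 7 MPP markers were higher in MPPs in both genotypes, while 10 of 10 HSC markers in WT and 8 of 10 in KO were lower. Markers of other cells also moved with the populations and with single arrays. In KO, 7 of 7 measured B-cell markers were higher in MPPs, with medians per array between -2.6 and -1.44 for HSCs and between 0.37 and 3.83 for MPPs (log2 level minus the mean of 6 arrays), and Ms4a1 was too dim to be measured. Neutrophil markers were higher in MPPs for 8 of 8 genes in KO and 7 of 8 in WT, and they also stood high on HSC 3, where their median was 1.03 in KO and 0.84 in WT against -1.73 to -2.39 on HSC 1 and 2. Mast cell and basophil markers were higher in MPPs for 6 of 6 genes in WT (median 2.43) and 5 of 6 in KO (median 1.2), and their median on HSC 3 in KO was 2.09, the highest of the 6 arrays. The part of these cells in the chaperone values below was not tested.

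Most members had more signal in MPPs than in HSCs among the samples labelled Bmi1 KO. Of the 34 measured members 31 had a higher mean level in KO MPPs than in KO HSCs (91.2%, against 43% of all features), with a median log2 difference of 0.54 against -0.09 for all features and -0.03 for the brightest features. All 8 CCT subunits, all 7 Hsp90 and Hsp70 cochaperones, all 5 measured Hsp70 and Hsp110 proteins, both Hsp90s, both BAG proteins and all 3 mitochondrial chaperones were on the higher side. The exceptions were Hsf2 and the J-domain proteins Dnajb4 and Dnajb6. Hsf1 was among the 31, but it passed the filter only through KO MPPs, so it adds no support to the count. With medians in place of quantiles as the scale, or with the deposited processed signals, the count was again 31 of 34. The member medians were 0.76 and 0.56. The brightest features then had medians of 0.12 and -0.03, with 59.4% and 47.4% of them higher in MPPs. No member passed limma at an adjusted p of 0.05, where 153 features did (0.525%). The level of a gene here is the log2 background-corrected intensity of its probe, quantile-normalized over the 6 arrays within 1 dye, and it is not comparable between probes or dyes. Fewer cells of a type and less RNA per cell cannot be told apart in such bulk samples.

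**Figure D1:**
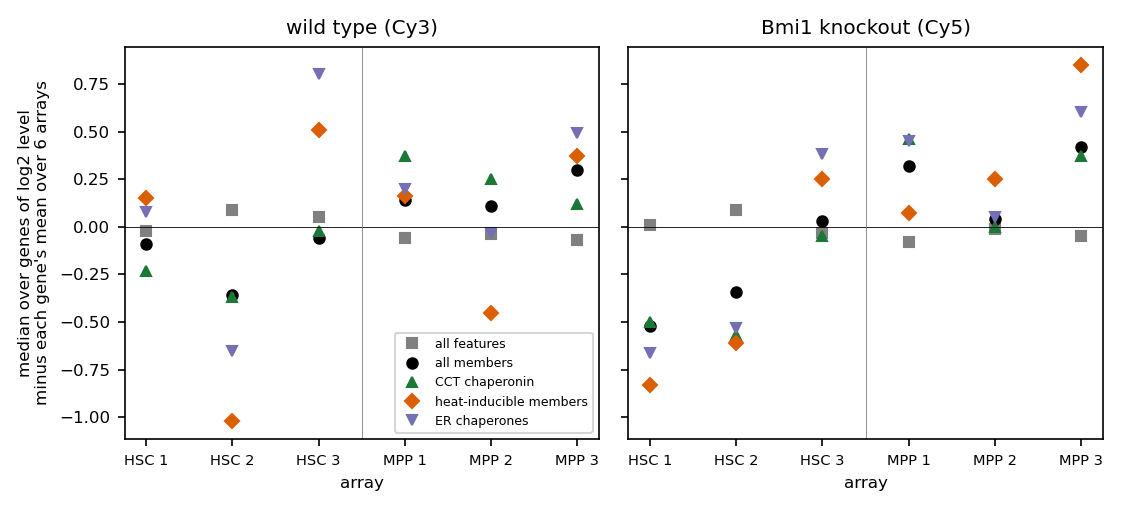
Median over the genes of a list of the log2 level minus each gene's own mean over the 6 arrays, for each array, in WT (Cy3, left) and Bmi1 KO (Cy5, right), with no error bars. In KO the median of all 34 members was -0.52, -0.34 and 0.03 on the HSC arrays and 0.32, 0.04 and 0.42 on the MPP arrays, so that HSC 3 and MPP 2 nearly touched, while the median of all features stayed between -0.08 and 0.09.

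Within KO the arrays of MPPs and HSCs did not overlap for 11 of the 34 members (32.4%), each time with MPPs higher, against 8.62% of all features with MPPs higher and 11.1% with MPPs lower. An unadjusted limma p under 0.05 was reached by 8 members, all higher in MPPs (23.5%, against 6.52% of features higher and 5.53% lower). Within row 1 of the slide, where MPP 1 could be set against the 3 HSC arrays, 30 members were higher in MPP 1 with a median of 0.58 (all features -0.13). Without HSC 3, the array with high neutrophil markers, 29 members were higher in MPPs, with a median of 0.72, and without HSC 1 the count was 27 and the median 0.49.

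**Figure D2:**
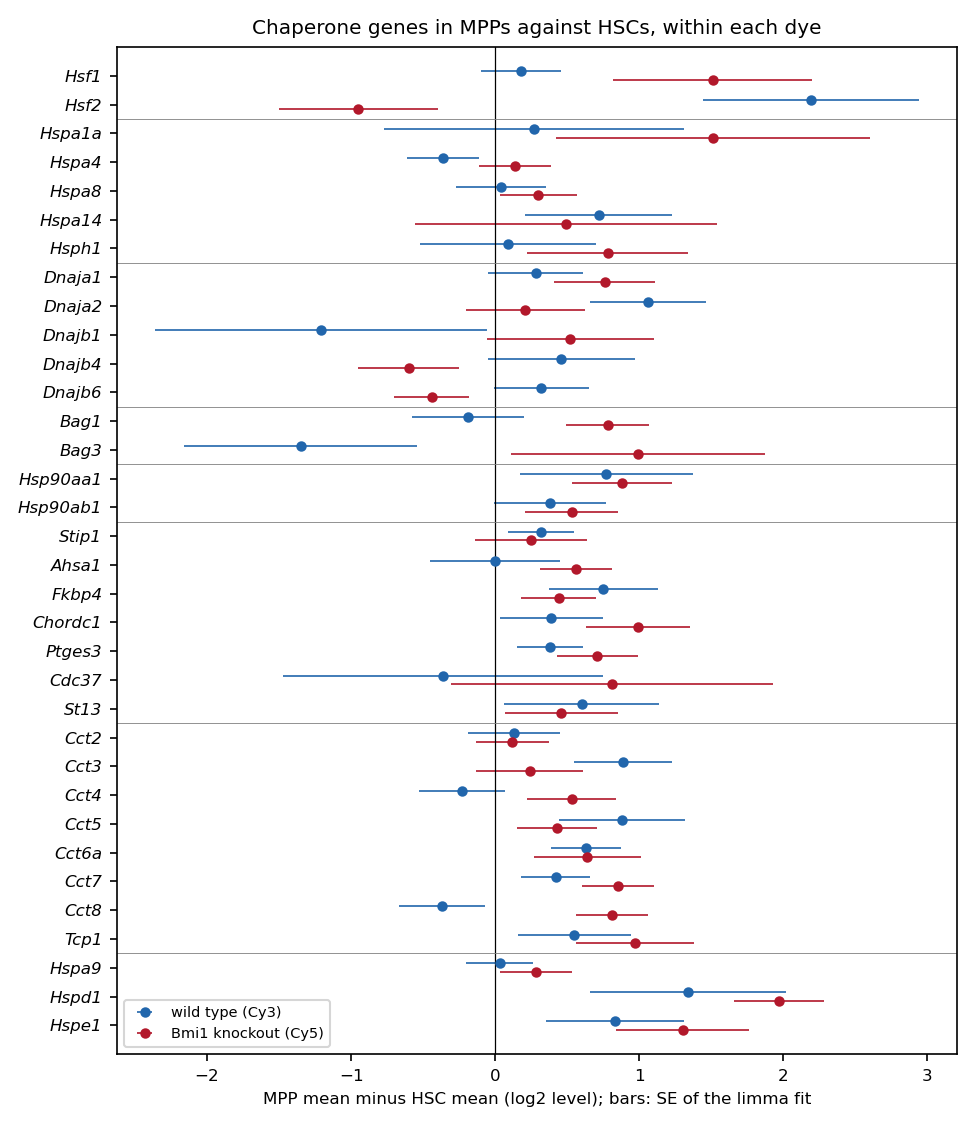
Mean log2 level in MPPs minus that in HSCs for each member (3 arrays against 3, bars for the SE of the limma fit), in WT (blue, Cy3) and Bmi1 KO (red, Cy5). Grey lines part the role groups, from the heat shock factors at the top to the mitochondrial chaperones at the bottom. The red points lie right of 0 for all genes but Hsf2, Dnajb4 and Dnajb6, and Hspd1 lies farthest right at 1.97.

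Hspd1, the mitochondrial Hsp60 that folds imported proteins in a closed chamber, had KO levels of 10.56, 10.27 and 11.23 on HSC 1, 2 and 3. Its levels on MPP 1, 2 and 3 were 12.54, 12.64 and 12.81. All MPP values thus lay above all HSC values, by 1.97 on average (SE 0.31, limma, adjusted p = 0.067). Without HSC 3 the difference was 2.25 (SE 0.26, adjusted p = 0.0452), and it was the only member call in any setting tried. In WT the levels were 10.84, 9.25 and 8.15 for HSCs against 10.72, 11.14 and 10.40 for MPPs. There HSC 1 was as high as the MPPs, the groups overlapped, and the difference was 1.34 (SE 0.68, adjusted p = 0.395). The probe lies at chr1:55134697-55134756 (mm9, minus strand).

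Hspe1, the Hsp10 lid of that chamber, stood in KO at 12.23, 12.01 and 13.55 in HSCs and at 13.70, 13.66 and 14.33 in MPPs. HSC 3 came close to the MPPs but stayed below them, and the difference was 1.30 (SE 0.46, limma, adjusted p = 0.354). In WT the levels of 11.55, 9.82 and 11.19 in HSCs and 11.83, 11.43 and 11.80 in MPPs overlapped, with a difference of 0.83 (SE 0.48, adjusted p = 0.444). All 3 Hspe1 probes were higher in MPPs in both genotypes, by 1.30, 1.42 and 1.33 in KO and 0.83, 0.84 and 0.77 in WT. Hspa9, the Hsp70 of the mitochondrial matrix, overlapped between the populations, with differences of 0.28 (SE 0.25, limma, adjusted p = 0.659) in KO and 0.03 (SE 0.23) in WT. Of 13 other measured genes of mitochondrial folding and quality control, 6 were higher in KO MPPs, with a median of -0.01, and none passed. In WT 9 of 13 were higher, with a median of 0.56, and Trap1, the mitochondrial Hsp90, stood at 1.23 (SE 0.50, adjusted p = 0.329) in WT and 0.54 (SE 0.26, adjusted p = 0.462) in KO.

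**Figure D3:**
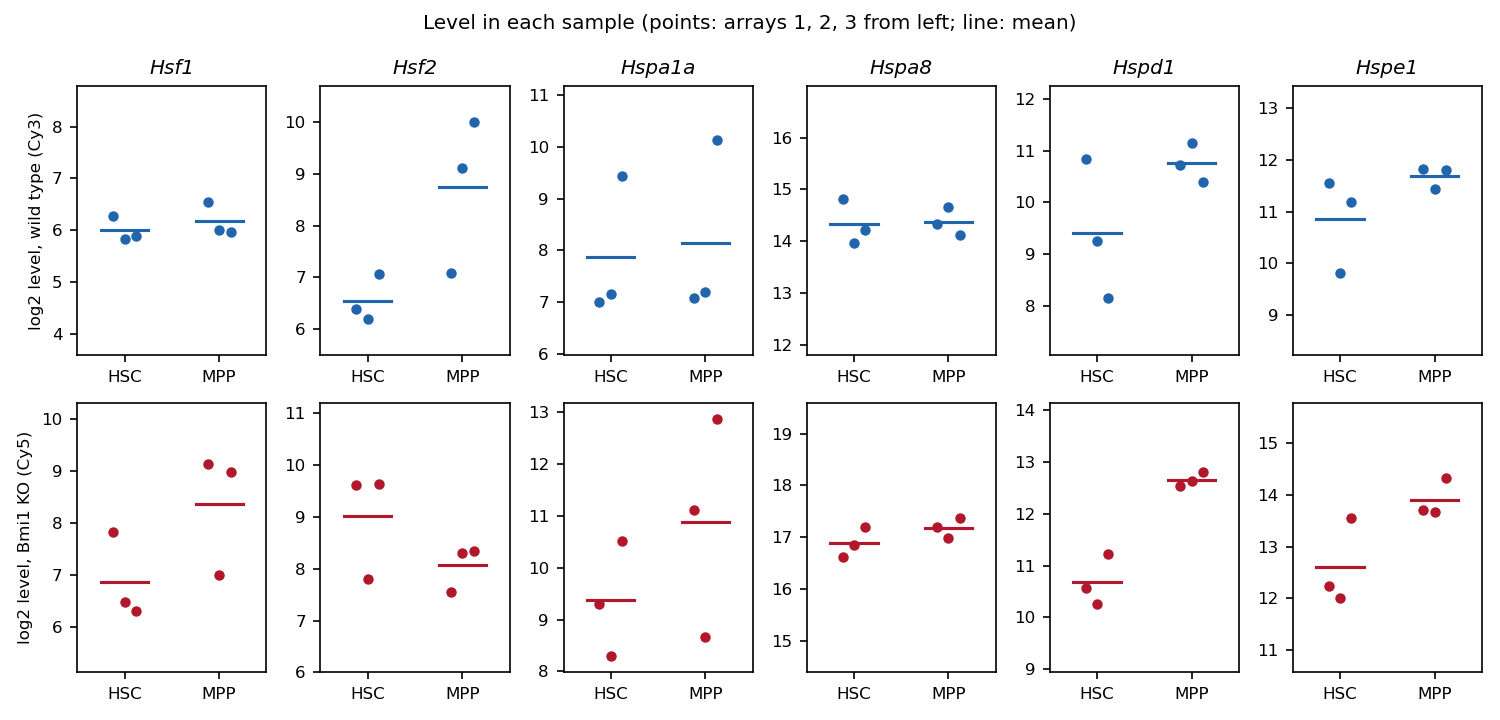
Log2 level of 6 members in every sample (points from left, arrays 1, 2 and 3; line, mean of 3), for WT in Cy3 (upper row) and Bmi1 KO in Cy5 (lower row); every panel spans the same range of log2 units, and levels cannot be compared between rows or genes. Hspd1 and Hspe1 are separated between HSCs and MPPs in KO only, Hsf2 is separated in WT only, and Hspa1a spreads widely within each group.

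The CCT chaperonin is built of 8 different subunits, all measured, and each had a higher mean in KO MPPs than in KO HSCs, by 0.12 (Cct2) to 0.97 (Tcp1), with a median of 0.58. Cct7 had KO levels of 14.87, 14.79 and 15.21 in HSCs and 15.99, 15.69 and 15.74 in MPPs, a difference of 0.85 (SE 0.25, limma, adjusted p = 0.267). Cct8 had 15.25, 15.13 and 15.61 in HSCs and 16.20, 15.93 and 16.30 in MPPs, a difference of 0.81 (SE 0.25, adjusted p = 0.306). In these subunits every KO MPP array was above every KO HSC array, and in the other 6 the groups overlapped. In WT 6 of 8 subunits were higher in MPPs, with a median of 0.48. Cct4 and Cct8 stood there at -0.23 (SE 0.30) and -0.37 (SE 0.30), and both turned to the higher side with median scaling, where the count was 8 of 8. In that setting 70.6% of the brightest features were also higher in WT MPPs, with a median of 0.50. Cct6a did not overlap in WT, at 12.22, 12.37 and 12.17 in HSCs and 13.15, 12.79 and 12.72 in MPPs (difference 0.63, SE 0.24, adjusted p = 0.312). Neither did Cct7, at 13.34, 13.22 and 13.65 against 13.68, 13.89 and 13.91 (difference 0.42, SE 0.24, adjusted p = 0.435).

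Among the cochaperones, Chordc1, a zinc-binding partner of Hsp90, had KO levels of 9.99, 10.73 and 11.12 in HSCs and 11.34, 11.91 and 11.56 in MPPs. The groups did not overlap and differed by 0.99 (SE 0.36, limma, adjusted p = 0.362), against 0.39 (SE 0.36) in WT, where they overlapped. Ptges3, the p23 cochaperone that holds Hsp90 closed on its client, was separated in both genotypes. Its WT levels were 13.37, 13.30 and 13.25 for HSCs against 13.50, 13.67 and 13.88 for MPPs, a difference of 0.38 (SE 0.23, adjusted p = 0.460). In KO the difference was 0.71 (SE 0.28, adjusted p = 0.397). Ahsa1, which stimulates the Hsp90 ATPase, and Fkbp4, an immunophilin of steroid receptor complexes, were separated in KO at 0.56 (SE 0.25) and 0.44 (SE 0.26). Stip1, which hands clients from Hsp70 to Hsp90, was separated in WT only, at 0.32 (SE 0.23).

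Hsp90aa1, the inducible Hsp90, had KO levels of 12.97, 12.80 and 13.65 in HSCs and 13.81, 13.73 and 14.51 in MPPs, which did not overlap (difference 0.88, SE 0.35, limma, adjusted p = 0.398). Its WT levels were 11.73, 9.65 and 11.68 for HSCs against 11.65, 11.63 and 12.09 for MPPs. Only HSC 2 stood apart there, the groups overlapped, and the difference was 0.77 (SE 0.60, adjusted p = 0.556). The constitutive Hsp90ab1 overlapped in both genotypes. It had 13.66, 13.66 and 14.42 in KO HSCs and 14.69, 14.10 and 14.54 in KO MPPs (0.53, SE 0.32, adjusted p = 0.537). In WT it had 12.16, 11.42 and 12.80 in HSCs and 12.34, 12.45 and 12.74 in MPPs (0.38, SE 0.39, adjusted p = 0.663).

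Hspa8, the constitutive Hsp70, overlapped between the populations in both genotypes. Its KO levels were 16.61, 16.84 and 17.20 for HSCs against 17.20, 16.98 and 17.37 for MPPs (0.30, SE 0.27, limma, adjusted p = 0.659). In WT they were 14.82, 13.97 and 14.21 against 14.33, 14.65 and 14.12 (0.04, SE 0.31, adjusted p = 0.970). Hspa1a, the strictly inducible Hsp70, varied by over 2 log2 units between samples of each group. Its WT levels were 7.01, 7.16 and 9.44 for HSCs against 7.09, 7.19 and 10.14 for MPPs, so HSC 3 and MPP 3 stood high. Arrays of equal number were not taken as pairs, here or below. In KO the Hspa1a levels were 9.30, 8.29 and 10.52 for HSCs against 11.12, 8.66 and 12.87 for MPPs. Within their populations HSC 3 and MPP 3 were highest and HSC 2 and MPP 2 lowest. The populations overlapped, with differences of 0.27 (SE 1.04) in WT and 1.51 (SE 1.09) in KO.

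The heat-inducible members taken as a list also followed single arrays. Over the 8 measured ones, Hspa1a included, the median per WT array was 0.15, -1.02 and 0.51 for HSC 1 to 3. For MPP 1 to 3 it was 0.16, -0.45 and 0.37. Within their populations HSC 2 and MPP 2 were lowest and HSC 3 and MPP 3 highest. In KO the median was -0.83, -0.61 and 0.25 for HSC 1 to 3 and 0.07, 0.25 and 0.85 for MPP 1 to 3. HSC 3 and MPP 3 were again highest within their populations. The WT medians of immediate early genes, which cells induce within minutes of many stimuli, were also highest on HSC 3 (1.52) and MPP 3 (1.09), against -0.51 to -1.08 on 3 of the others and -0.17 on MPP 2. A link between these lists was not tested. Dnajb1, the J-domain partner of Hspa1a, showed the widest WT span of the J-domain proteins, with 10.96, 9.01 and 13.64 in HSCs, where array 3 stood highest, and a mean of 9.99 (SD 0.79, n = 3) in MPPs. Dnajb4 and Dnajb6 were the only J-domain proteins lower in KO MPPs than in KO HSCs, at -0.60 (SE 0.35) and -0.44 (SE 0.26). For Dnajb6 the direction depended on the probe, since 2 of its 4 probes stood at 0.95 and 0.92 in KO MPPs and another at -0.43. In WT both genes had the other sign, at 0.46 (SE 0.51) and 0.32 (SE 0.33), and in both genotypes the populations overlapped.

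In WT, MPPs had the higher mean for 27 of 34 members (79.4%, against 43.7% of all features), with a median of 0.35 against -0.09 for all features and 0.06 for the brightest features. With median scaling the count was 31, with a median of 0.83, but the brightest features then had a median of 0.50. The arrays did not overlap for 6 members, all higher in MPPs (17.6%, against 8.25% of features higher and 13.8% lower). No member passed limma, where 122 features did (0.419%), and 4 had an unadjusted p under 0.05, all higher (11.8%, against 6.77% of features higher and 8.4% lower). Within slide row 1 the count was 24 and the median 0.25 (all features -0.12), and without HSC 2 the median was 0.20. Dnaja2, a J-domain partner of Hspa8, was among the separated members, with WT levels of 8.62, 9.83 and 9.83 in HSCs and 10.25, 10.45 and 10.76 in MPPs (1.06, SE 0.40, limma, adjusted p = 0.313). Its second probe had the opposite sign in WT, at -0.45, and the mean of both probes gave 0.31. Bag1 and Bag3, exchange factors that link Hsp70 to degradation, had the lower mean in WT MPPs, at -0.19 (SE 0.39) and -1.35 (SE 0.81), and the higher one in KO MPPs, at 0.78 (SE 0.29) and 0.99 (SE 0.88). Bag1 did not overlap in KO, and Bag3 spanned 7.64 to 10.54 within WT HSCs alone. With median scaling 1 of these BAG genes turned to the higher side in WT.

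Hsf2, a heat shock factor with a role in development, had the strongest contrast between genotypes of all members by size of the difference. Its KO over WT log2 ratios were 1.89, 0.60 and 1.41 on the HSC arrays and -0.67, -2.43 and -3.25 on the MPP arrays. Every HSC array thus had more signal in KO and every MPP array less. The mean ratio was 1.30 (SE 0.52, limma, adjusted p = 0.664) in HSCs and -2.12 (SE 0.52, adjusted p = 0.965) in MPPs, and their difference was -3.42 (SE 0.73, adjusted p = 0.964). In WT the levels were 6.39, 6.19 and 7.07 for HSCs against 7.09, 9.12 and 10.00 for MPPs, with MPP 1 barely above HSC 3, and the difference of 2.19 (SE 0.75, adjusted p = 0.292) had the smallest p of the members. In KO the levels were 9.61, 7.80 and 9.64 for HSCs against 7.56, 8.30 and 8.35 for MPPs, which overlapped (-0.95, SE 0.55, adjusted p = 0.525). Within slide row 1 the difference of the ratios was -1.97 and that of the WT levels 0.54. The probe (chr10:57232832-57232891, mm9, plus strand) was well above background on 5 of 6 WT and all 6 KO channels. In WT HSCs it was so on 2 of 3 arrays. The HSC ratios, the WT difference and the difference of the ratios therefore rest partly on low signals in that group.

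Hsf1, the main stress-responsive factor, had positive ratios on all 6 arrays, at 0.65, 0.23 and 0.08 in HSCs and 1.38, 0.27 and 1.66 in MPPs. The means were 0.32 (SE 0.33) in HSCs and 1.1 (SE 0.33) in MPPs. Its probe (chr15:76331320-76331379, mm9, plus strand) was dim, being well above background on 2 of 6 WT and 4 of 6 KO channels, so its ratios rest largely on signals near background. It passed the filter only through KO MPPs, where 3 of 3 arrays were well above background, against 1 of 3 in each other group. Its higher signal there was thereby favoured by the filter, and its values are a description that supports none of the counts of positive or higher members in which it is included. The WT levels of 6.27, 5.83 and 5.89 in HSCs and 6.54, 6.01 and 5.96 in MPPs overlapped. In KO they were 7.82, 6.47 and 6.30 for HSCs against 9.13, 6.99 and 8.99 for MPPs, where MPP 2 fell within the HSC range.

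Between genotypes the member median of the KO over WT ratio was -0.19, 0.26 and 0.20 on HSC 1, 2 and 3 and 0.33, 0.17 and 0.43 on MPP 1, 2 and 3, so HSC 1 alone was negative. In HSCs 22 of 34 had a positive KO over WT ratio (64.7%, against 50.2% of all features), with a median of 0.19 (all features 0, brightest features 0.04). In MPPs 25 were positive (73.5%, against 50.7%), with a median of 0.31 (all features 0.01, brightest features 0.02). No feature passed limma in either population (0% of 29134). An unadjusted p under 0.05 was reached in HSCs by 5 members (14.7%, against 7.4% of features), of which 4 were positive (11.8%, against 3.95%) and 1 negative (2.94%, against 3.45%). In MPPs it was reached by 6 members (17.6%, against 5.1%). Of these, 5 were positive (14.7%, against 2.49%), Hsf1 among them, and 1 negative (2.94%, against 2.62%). Hsf1 was favoured by the filter as said above and adds no support to the count. Without HSC 2 the HSC count of positive members was 17 of 34 and the median 0.07, and without MPP 1 the MPP count was 24 and the median 0.16. B-cell markers moved with the MPP comparison, 7 of 7 being positive with a median of 3.91 (2.42, 4.90 and 4.50 on MPP 1, 2 and 3), against 4 of 7 and 0.08 in HSCs. Their part in the member values was not tested. These counts depend on how dye bias is removed. When arrays were centred on their median in place of the loess curve, 28 members were positive in HSCs and 33 in MPPs, with medians of 0.78 and 0.79. In HSCs this was 82.4%, against 68.8% of all features and 91.6% of the brightest features. In MPPs it was 97.1%, against 68.6% and 86.1%. All features then shifted to 0.29 and 0.26 and the brightest features to 0.76 and 0.52, so that the members stood 0.02 above the brightest features in HSCs and 0.27 above it in MPPs.

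**Figure D4:**
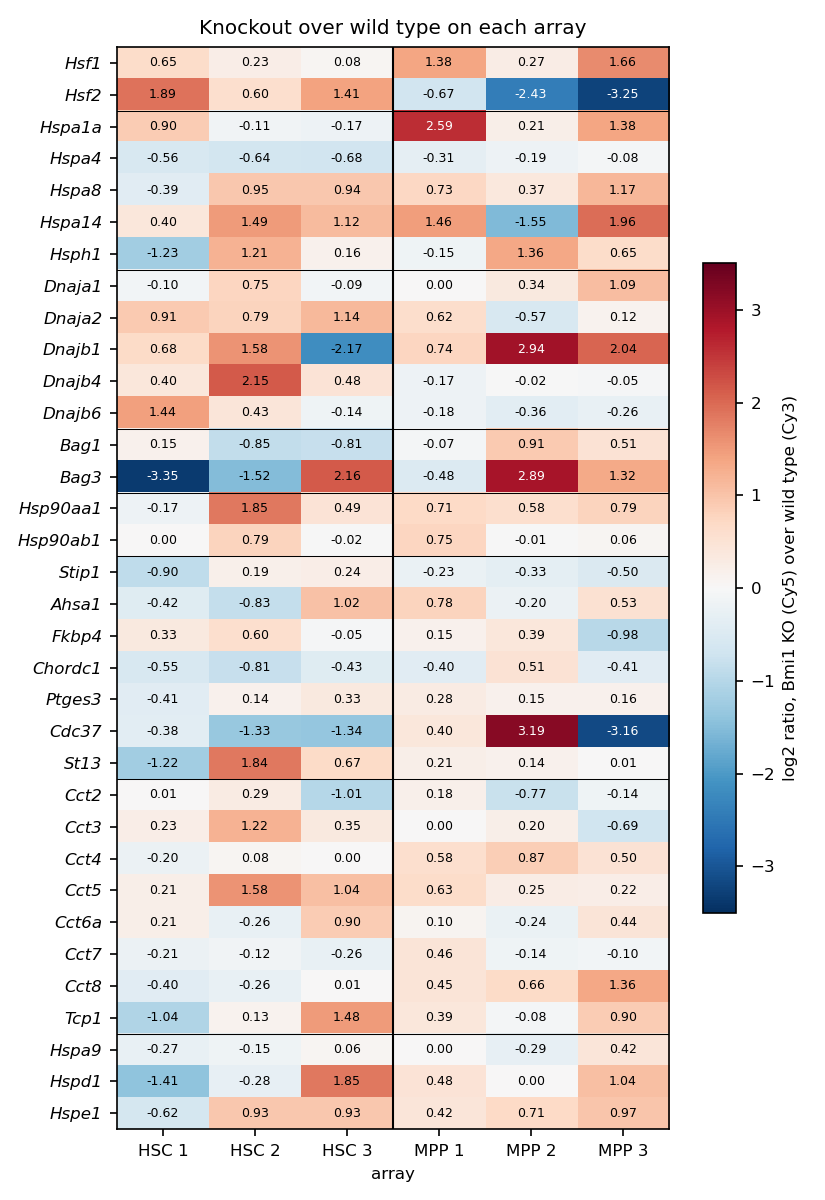
Log2 ratio of Bmi1 KO (Cy5) over WT (Cy3) for each of the 34 members on each array after loess, with the value printed in each cell and lines between role groups (red, KO higher; blue, WT higher). Hsf2 is red on all 3 HSC arrays and blue on all 3 MPP arrays, Hspa4 is blue on all 6, and Hsf1 and Cct5 are red on all 6.

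In HSCs all 3 arrays were positive for 7 members (20.6%, against 13.3% of features) and negative for 4 (11.8%, against 13.6%). Dnaja2 had ratios of 0.91, 0.79 and 1.14, a mean of 0.95 (SE 0.29, limma, adjusted p = 0.664). Cct5 had 0.21, 1.58 and 1.04, a mean of 0.94 (SE 0.31, adjusted p = 0.664), and Dnajb4 had 0.40, 2.15 and 0.48, a mean of 1.01 (SE 0.38, adjusted p = 0.664). HSC 2 gave the largest value in Cct5 and Dnajb4, whereas Dnaja2 was even across arrays. Its 2 probes, however, had opposite signs in this comparison. Cct3 followed at 0.23, 1.22 and 0.35 (mean 0.60, SE 0.31, adjusted p = 0.685). The probes used for the 5 J-domain proteins had positive means in HSCs, with a median of 0.57. With median centring it was 1.37, where the brightest features had 0.76. However, other probes of Dnaja1, Dnaja2 and Dnajb6 gave -1.21, -0.31 and -0.10.

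On the lower side in HSCs stood Hspa4, an Hsp110 exchange factor, with even ratios of -0.56, -0.64 and -0.68. Its mean was -0.62 (SE 0.21, limma, adjusted p = 0.664), but its 3 probes did not share a sign. With median centring the mean was -0.02, where all features had a median of 0.29. In MPPs Hspa4 had -0.31, -0.19 and -0.08 (mean -0.19, SE 0.21, adjusted p = 0.986), above every HSC value. Other probes of Hspa4 gave 0.25 and 0.49 in MPPs. Chordc1 had -0.55, -0.81 and -0.43 in HSCs (mean -0.60, SE 0.27, adjusted p = 0.668). Cdc37, which brings kinases to Hsp90, had -0.38, -1.33 and -1.34 in HSCs (mean -1.02, SE 1.06, adjusted p = 0.806) but 0.40, 3.19 and -3.16 in MPPs, the widest spread of any member. Cct7 had -0.21, -0.12 and -0.26 in HSCs (mean -0.19, SE 0.23, adjusted p = 0.832). With median centring it turned positive, at 0.64, but stayed below the brightest features (median 0.76).

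In MPPs all 3 arrays were positive for 13 members (38.2%, against 14.8% of features) and negative for 5 (14.7%, against 14.2%). Hsf1 was among the 13 and adds no support to that count. Cct8 had ratios of 0.45, 0.66 and 1.36 (mean 0.82, SE 0.27, limma, adjusted p = 0.965). Cct4 had 0.58, 0.87 and 0.50 (mean 0.65, SE 0.22, adjusted p = 0.965). In HSCs the same subunits lay about 0, at -0.40, -0.26 and 0.01 for Cct8 and -0.20, 0.08 and 0.00 for Cct4, and neither overlapped between the populations. Hspa1a had 2.59, 0.21 and 1.38 in MPPs (mean 1.40, SE 0.48, adjusted p = 0.965), against 0.90, -0.11 and -0.17 in HSCs (mean 0.21, SE 0.48, adjusted p = 0.920). Dnajb1 had 0.74, 2.94 and 2.04 in MPPs (mean 1.91, SE 0.75, adjusted p = 0.965), against 0.68, 1.58 and -2.17 in HSCs, so that HSC 3 alone was negative. The array that gave the largest MPP ratio differed between these genes, being MPP 1 for Hspa1a, MPP 2 for Dnajb1 and MPP 3 for Cct8.

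Hspa8 and both Hsp90 genes had positive means in both populations. Hspa8 had 0.73, 0.37 and 1.17 in MPPs (mean 0.75, SE 0.35, limma, adjusted p = 0.965) and -0.39, 0.95 and 0.94 in HSCs (mean 0.50, SE 0.35, adjusted p = 0.736). Its 3 probes were positive in both populations, with means of 0.75, 0.52 and 0.63 in MPPs and 0.50, 0.48 and 0.67 in HSCs. Hsp90aa1 had 0.71, 0.58 and 0.79 in MPPs (mean 0.69, SE 0.39, adjusted p = 0.965) and -0.17, 1.85 and 0.49 in HSCs (mean 0.72, SE 0.39, adjusted p = 0.691). The MPP arrays were close together and the HSC arrays spread around them. Hsp90ab1 had 0.75, -0.01 and 0.06 in MPPs and 0.00, 0.79 and -0.02 in HSCs, with 1 array above 0 by more than 0.1 in each population.

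Of the 9 negative means in MPPs, 5 had the same sign on all 3 arrays. Besides Hsf2 and Hspa4 these were Stip1 at -0.23, -0.33 and -0.50 (mean -0.35, SE 0.30, limma, adjusted p = 0.983), Dnajb6 at -0.18, -0.36 and -0.26 (mean -0.27, SE 0.33, adjusted p = 0.986) and Dnajb4 at -0.17, -0.02 and -0.05 (mean -0.08, SE 0.38, adjusted p = 1). Each of the 3 turned positive with median centring, as did Hspa4, at values of 0.21 to 0.35. All features then had a median of 0.26 and the brightest features one of 0.52, so these genes stayed below the brightest features. The means of Cct2 (-0.24), Cct3 (-0.17), Fkbp4 (-0.14) and Chordc1 (-0.10) rested on arrays of both signs.

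The difference of the KO effect between MPPs and HSCs, in which a constant dye bias cancels, was positive for 21 of 34 members (61.8%, against 50.8% of features), with a median of 0.23. Without HSC 1 the median was -0.09 and the count 15. No feature passed limma (0%), and 2 members had an unadjusted p under 0.05 (5.88%, against 4.04% of features). These were Cct8 on the higher side (2.94%, against 1.69%) and Hsf2 on the lower (2.94%, against 2.35%). The ratios of both populations were fully separated for 4 members with MPPs higher (11.8%, against 3.81% of features), namely Cct8, Cct4, Hspa4 and Chordc1, at 1.04 (SE 0.38), 0.69 (SE 0.31), 0.43 (SE 0.30) and 0.50 (SE 0.39). They were likewise separated for 5 with MPPs lower (14.7%, against 4.29%). These were Hsf2, Dnaja2 at -0.89 (SE 0.41), Dnajb4 at -1.09 (SE 0.54), Dnajb6 at -0.84 (SE 0.47) and Cct3 at -0.77 (SE 0.44). For Dnaja2 and Dnajb6 this rests on the probe used, since the other Dnaja2 probe gave 1.30, 2 of the other Dnajb6 probes gave 0.74 and 0.76, and the mean of a gene's probes was 0.20 and 0.06. The adjusted limma p was 0.964 for each of these 9 genes. These differences share the samples of the ratios above and add no further evidence to them.

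Averaged over both populations, the KO over WT ratio was positive for 25 members (73.5%, against 50% of features), with a median of 0.27. No feature passed limma (0%). An unadjusted limma p under 0.05 was reached by 6 members (17.6%, against 8.36% of features). Of these, 5 were positive (14.7%, against 4.49%), Hsf1 among them, and 1 negative (2.94%, against 3.88%). Hsf1 and Cct5 were positive and Hspa4 was negative on all 6 arrays, shares of 5.88% and 2.94% against 3.26% and 3.30% of features, where Hsf1 was subject to the filter as said above. The means were 0.65 (SE 0.22, adjusted p = 0.580) for Cct5 and -0.41 (SE 0.15, adjusted p = 0.585) for Hspa4. With median centring the Hspa4 mean turned to 0.10, where all features had a median of 0.28. Other probes of Hspa4 gave means of -0.01 and 0.34. With 3 arrays an exact permutation of signs cannot give p below 0.25, with 6 none below 0.03125, and 3 arrays against 3 none below 0.1. All p-values measure the spread between these samples.

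The remaining members overlapped in nearly all comparisons. Hsph1, the inducible Hsp110, had ratios of -1.23, 1.21 and 0.16 in HSCs and -0.15, 1.36 and 0.65 in MPPs. Its highest ratios were on HSC 2 and MPP 2, and KO MPPs stood 0.78 (SE 0.56) above KO HSCs. Hspa14, a ribosome-associated Hsp70, had mean ratios of 1.00 (SE 0.67) in HSCs, positive on all 3 arrays, and 0.62 (SE 0.67) in MPPs. Dnaja1, a J-domain partner of cytosolic Hsp70, was separated between the KO populations, at 0.76 (SE 0.35, limma, adjusted p = 0.443). St13, which binds Hsp70 in its ADP state, differed between them by 0.46 (SE 0.39) and Cdc37 by 0.81 (SE 1.12).

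Where a gene had more than 1 probe, the brightest one is given here, and the choice mattered for some members. Of 9 genes with several kept probes, the probes had both signs in 6 for KO over WT in HSCs, in 3 for KO over WT in MPPs, in 5 for MPPs against HSCs in WT and in 1, Dnajb6, for MPPs against HSCs in KO. The probes of Hspa8 and of Hspe1 shared a sign in each of these comparisons, and those of Dnajb6 in none.

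Other chaperone genes outside the set were counted in the same way. Of 52 measured cytosolic chaperones and cochaperones, such as prefoldins, tubulin cofactors and further J-domain proteins, 34 were higher in KO MPPs (median 0.23) and 36 in WT MPPs (median 0.47), and none passed limma. Dnajc9, a histone chaperone, stood at 1.46 (SE 0.35, adjusted p = 0.183) and Nudc, an Hsp90-associated protein, at 0.87 (SE 0.22, adjusted p = 0.209) in KO MPPs, whereas the J-domain protein Dnaja4 stood at -2.57 (SE 0.40, adjusted p = 0.0605). Nudcd3 stood at -1.68 (SE 0.29, adjusted p = 0.109) in WT MPPs. Between genotypes 31 of the 52 were positive in HSCs (median 0.18) and 28 in MPPs (median 0.03), again with no call. The tubulin cofactor Tbcd stood at -0.96 (SE 0.36, adjusted p = 0.664) in HSCs and -1 (SE 0.36, adjusted p = 0.965) in MPPs.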

How the data were processed

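Spots were quantified with Agilent Feature Extraction 10.7.3.1, per the file headers, on probe positions of mouse assembly mm9, whereas the submitters' processing notes give version 8.5.1.1. The deposited values used were the mean and background intensity of each spot in both channels, the processed intensity (background-subtracted and dye-normalized by that software), its log10 ratio of red over green and 0 or 1 marks for spot quality. In the deposited series matrix, the same log10 ratio was given for all 6 arrays. Intensities were corrected with normexp (offset 50) in limma 3.58.1 (R 4.3.3, the data.table package, version 1.17.8, jsonlite 2.0.0), and log2 ratios, computed here from the deposited intensities, were loess-normalized within arrays. Levels were quantile-normalized within a dye.

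A probe was kept when any of the 4 groups had it well above background on each of its 3 arrays, and the brightest probe stood for a gene. For the 6 comparisons, a limma model (lmFit, eBayes) with a mean for HSCs and a mean for MPPs was fitted, adjusted by Benjamini-Hochberg over all 29134 features (threshold 0.05), and the code was tested on simulated data. Members and gene lists were chosen with earlier results of these data known. Values in every array are given for Hsf1, Hsf2, Hspa1a, Hspa8, Hsp90aa1, Hsp90ab1 and, per comparison and direction, for up to 5 members of smallest p that kept 1 sign or did not overlap. Of each pathway list up to 3 genes of smallest p could be named. Alternatives were other probe filters, the mean of a gene's probes, the deposited ratio or signal, median scaling, slide row or replicate number as a block, and leaving out each array. Promoter letters came from RefSeq windows on GRCm38.p6. Replicate numbers were not taken to pair the samples.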

Additional observations from a re-analysis of the deposited data

Results flagged for a closer look

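The KO effect on Hsf2 differed between the populations by -3.42 on the log2 scale, because all 3 HSC ratios were positive and all 3 MPP ratios negative. Its WT HSC signals were low, being well above background on 2 of 3 arrays. Dnajb4 showed the same signs of the ratios with a difference of -1.09, although its MPP ratios lay between -0.17 and -0.02. Neither difference passed limma (Benjamini-Hochberg adjusted p = 0.964 for both).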

How the results depend on the processing

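With median centring in place of loess, the member median of the KO over WT ratio was 0.78 in HSCs, 0.79 in MPPs and 0.80 for the mean of both, against shifts of all features of 0.29, 0.26 and 0.28, and 303 features passed for the mean effect. That setting turned the sign of Cct7 in HSCs (0.64), of Dnajb4 (0.30), Dnajb6 (0.35), Hspa4 (0.21) and Stip1 (0.21) in MPPs and of Hspa4 in the mean (0.10). All of these values stayed below the median of the brightest features in that setting, 0.76 in HSCs, 0.52 in MPPs and 0.62 for the mean. The mean of a gene's probes turned Dnajb6 (0.23) and Hspa4 (0.18) in MPPs and, in the difference of effects, Dnaja2 (0.20) and Dnajb6 (0.06). For WT MPPs against HSCs, median scaling gave a member median of 0.83, and features passing numbered 51 without the filter, 0 with the replicate block, 0 with slide row as a block and 0 to 121 when leaving out 1 array. For KO they numbered 101 with the strict filter, 37 with the replicate block, 16 with slide row as a block and 58 to 155 when leaving out 1 array, while members passing numbered 0 or 1, the 1 being Hspd1 without HSC 3. Leaving out 1 array moved the member medians from 0.16 to 0.32 (KO over WT in MPPs), from -0.09 to 0.30 (difference of effects) and from 0.20 to 0.51 (WT populations), the lowest values coming without MPP 1, HSC 1 and HSC 2. The replicate block changed no member call and no sign of a member named by rule. Deviations of same-numbered arrays had correlations of -0.0659 to 0.156. No other pairing was set beside these, so they do not decide whether the samples were paired. Of the gene values recomputed, 516 kept their direction and side of the threshold, 10 turned and 1 (Hspd1) newly passed. The causes of these shifts were not tested. Hsf1 and Hsf2, not well above background on every array, fell out under the strict filter.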

Other observations

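Chaperones of the endoplasmic reticulum (ER), which serve secreted and membrane proteins, were higher in KO MPPs than in KO HSCs for 10 of 13 genes, with a median of 0.86 on the log2 scale, and in WT MPPs for 9 of 13, with a median of 0.26. Hyou1, the ER relative of Hsp110, stood at 1.67 (SE 0.51, limma, Benjamini-Hochberg adjusted p = 0.297) in KO and at -1.08 (SE 0.63, adjusted p = 0.446) in WT. Its KO over WT ratio was -1.44 (SE 0.31, adjusted p = 0.652) in HSCs and 1.23 (SE 0.31, adjusted p = 0.965) in MPPs. Hspa5, the ER Hsp70 known as BiP, had ratios of 0.53 (SE 0.27) and 0.77 (SE 0.27). The KO median of the ER chaperones per array was -0.66, -0.53 and 0.38 for HSC 1 to 3 and 0.45, 0.05 and 0.60 for MPP 1 to 3, so that HSC 3 lay among the MPPs.

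Immediate early genes were on the positive side of the KO over WT ratio for 18 of 20 genes in HSCs (median 0.52) and 15 of 20 in MPPs (median 0.60). Fos stood at 1.29 (SE 0.42, limma, adjusted p = 0.664) and 1.36 (SE 0.42, adjusted p = 0.965), and Atf3 at 3.55 (SE 1.38, adjusted p = 0.664) in HSCs. The median ratio of the list per array was 0.81, 1.43 and -0.50 for HSC 1 to 3 and 1.16, 0.78 and -0.12 for MPP 1 to 3. HSC 3 and MPP 3 were thus negative.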
